A study of Mus musculus with 16 samples.

Results

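B-lineage cells of mouse BM whose RNA held no Ighd, the transcript of the IgD heavy chain, made up 1218 of 31191 CD45+ BM cells, out of 73176 single cells kept in the 16 libraries of the study. They were chosen by unique molecular identifiers (UMIs, counts of captured RNA molecules): at least 3 UMIs of Cd79a and Cd79b together, 0 UMIs of Ighd and fewer than 20 UMIs of Jchain, which left plasma cells out. Cells entered with 201 to 5999 genes and at most 10% mitochondrial UMIs. These cells fell from 10.1% of CD45+ BM cells in non–tumor-bearing WT mice to 2.29% in 2208L tumor–bearing mice given vehicle, and to 0.541% in tumor-bearing mice given IACS-70654. With vehicle, 36 of 8333 genes (0.432%) were called against WT in the remaining cells (adjusted p below 0.01 and log2 change beyond 0.5), 34 of them higher, and 0 of these 34 were called once cells that also carried RNA of other cell types were left out. With IACS-70654 against vehicle 346 genes (4.15%) were called, with Bach2, Myl4, Ly6d, Ighm and 9 of 52 tested G2/M genes among those lower. Of all genes, 2.99% were called lower. Members with RNA of 10 other B-lineage genes held only 146781 of 341003 and 149735 of 375055 UMIs of the treated members. Dntt and Vpreb1, genes of the earliest B-cell progenitors, were called higher only in restricted sets. Both were called without cells that carried RNA of other cell types, a set of 9 and 17 treated cells. Neither was called in all members.

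The study tested IACS-70654, an inhibitor of the bromodomains of the histone acetyltransferases CBP and P300, in mice with 2208L tumors, grown from transplants of a Trp53-null mammary tumor line. CD45+Ter119– BM cells were sorted and sequenced in droplets. The 3 groups were untreated WT mice without a tumor (the label calls them ctrl), tumor-bearing mice given vehicle, and tumor-bearing mice given IACS-70654 by mouth in cycles of 3 days on and 2 days off, for 7 days per the series record, whereas the study's text on BM gives 6 days. All were female BALB/c mice by the study's methods, which put tumor transplantation at 7 to 8 weeks of age, and the age of the WT mice without a tumor was not found in the sources used here. Each group has 2 libraries. The study's methods describe a sample as a pool of 3 mice, and the series record speaks of 3 mice pooled for a treatment group, so that the 2 libraries of a group may be separate pools or parts of 1, and the p values may measure technical spread only. WT mice given IACS-70654 were not analysed here, so tumor and drug cannot be told apart in the comparison of IACS-70654 with WT.

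B lymphopoiesis in BM starts from pro-B cells, which rearrange the immunoglobulin heavy chain gene with Rag1, Rag2 and Dntt and express the surrogate light chain encoded by Vpreb1, Vpreb2 and Igll1. A successful heavy chain (Ighm) pairs with the surrogate light chain and with CD79A and CD79B to form the pre-BCR, which drives a burst of division in large pre-B cells. Small pre-B cells then leave the cell cycle and rearrange a light chain gene, immature B cells carry surface IgM, and IgD appears on cells that are about to leave BM or have recirculated.

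The 6 libraries held from 4394 to 6154 kept cells each, with medians from 4113 to 6596.5 UMIs per cell, and no cell barcode was shared between them. The 2 WT libraries had the lowest medians and the 2 IACS-70654 libraries the highest. Cells with at least 50 UMIs of S100a8 and S100a9 that fell in no other class, granulocytes for the most part, made up a mean of 57.4% of kept cells in WT, 72.4% with vehicle and 78.1% with IACS-70654. The T or NK class, 18.1%, 18.6% and 12.5% of kept cells, also held such cells for the most part (713 of 828 in WT library 1, 960 of 987 in vehicle library 1 and 576 of 611 in IACS-70654 library 1), and after thinning to 2000 UMIs the first class had a log2 difference of -0.07 between IACS-70654 and vehicle, so no rise between these 2 groups is read from it. All shares of cells below are shares of the sorted cells, so a lower share and a lower number of cells per bone cannot be told apart.

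The label was checked against RNA that the rule did not use. Of the members, 431 and 464 in the 2 WT libraries, 116 and 128 in the 2 vehicle libraries and 16 and 25 in the 2 IACS-70654 libraries had at least 5 UMIs of 10 other B-lineage genes. This is 98.9% and 99.4% of the members in WT and 93.5% and 97.7% with vehicle, but 64.0% and 71.4% with IACS-70654. The label thus held for nearly all members in WT and vehicle libraries, whereas 9 of 25 and 10 of 35 in the treated libraries lacked this RNA. Of the 9 and 10 members without it in the IACS-70654 libraries, 7 and 6 had at least 100 UMIs of Elane, Mpo and Prtn3, genes of granulocyte precursors, and 7 and 9 had exactly 3 UMIs of Cd79a and Cd79b, the lowest number the rule takes. Their medians were 20559 and 24042 UMIs per cell, against 7004 and 4000 UMIs in the other members of the same libraries.

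RNA of neutrophils was present in every library. The 12 neutrophil markers summed to 29758 and 34805 CPM (counts scaled to a fixed total of the members' UMIs in each library) in WT, 53099 and 60145 CPM with vehicle, and 80032 and 60940 CPM with IACS-70654. For comparison, cells of the plasmacytoid dendritic type held 13677 to 29709 CPM of the neutrophil markers and 222.71 to 481.32 CPM of the 10 other B-lineage genes, against 3733.1 to 11305 CPM of these 10 genes in the members. Of the members, 61 of 436 and 74 of 467 in WT, 31 of 124 and 32 of 131 with vehicle, and 16 of 25 and 17 of 35 with IACS-70654 had at least 50 UMIs of S100a8 and S100a9. The main results on genes are therefore given also for members with at least 5 UMIs of Cd79a and Cd79b (377 and 424 in WT, 99 and 114 with vehicle, 12 and 22 with IACS-70654). They are given as well for members that met none of the rules for S100a8/S100a9-high cells, for plasmacytoid dendritic cells (at least 2 UMIs of Siglech) and for T or NK genes (at least 3 UMIs of Cd3d, Cd3e, Cd3g, Nkg7 and Klrd1, a rule that cells rich in neutrophil RNA also met), which left 373 and 390 members in WT, 92 and 99 in vehicle libraries and 9 and 17 with IACS-70654, called members that met no other rule below. The doublet caller did not work in 5 of the 6 libraries, so doublets were not removed by a caller.

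At the edge of the rule, 26 and 15 members in WT, 13 and 9 in vehicle libraries and 10 and 12 with IACS-70654 had exactly 3 UMIs of Cd79a and Cd79b. Just outside it, with 2 UMIs and no Ighd, were 41 and 41 cells in WT, 26 and 24 in vehicle libraries and 36 and 62 with IACS-70654, of which 12 and 11, 9 and 3, and 0 and 4 had at least 5 UMIs of the 10 other genes.

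The question of the first comparison was whether a tumor, and then the inhibitor, changed the B-lineage compartment of the marrow. B-lineage cells without Ighd made up 9.52% and 10.6% of kept cells in the 2 WT libraries (436 of 4579 and 467 of 4394), 2.43% and 2.15% in the 2 vehicle libraries (124 of 5112 and 131 of 6087) and 0.514% and 0.569% in the 2 IACS-70654 libraries (25 of 4865 and 35 of 6154). The 3 groups did not overlap, and each step was far larger than the gap between the libraries of a group. The means were 10.1% ± 0.782 (SD, n = 2) for WT, 2.29% ± 0.194 (SD, n = 2) for vehicle and 0.541% ± 0.0388 (SD, n = 2) for IACS-70654. By edgeR's quasi-likelihood test on cell numbers of 7 classes, with Benjamini-Hochberg adjustment, the share fell by 2.14 on the log2 scale (SE 0.126, adjusted p = 6.23e-13), or 4.42-fold, with vehicle against WT. With IACS-70654 it fell by a further 2.06 (SE 0.249, adjusted p = 1.66e-07), or 4.17-fold, against vehicle, and by 4.20 (SE 0.175, adjusted p = 6.82e-16), or 18.4-fold, against WT. The spread in this test is estimated over few classes that share 1 total.

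Members with RNA of 10 other B-lineage genes made up 9.41% and 10.6% of kept cells in WT, 2.27% and 2.10% in the vehicle libraries, but only 0.329% and 0.406% in the treated ones, lower still than with cells that lacked this RNA.

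**Figure D1:**
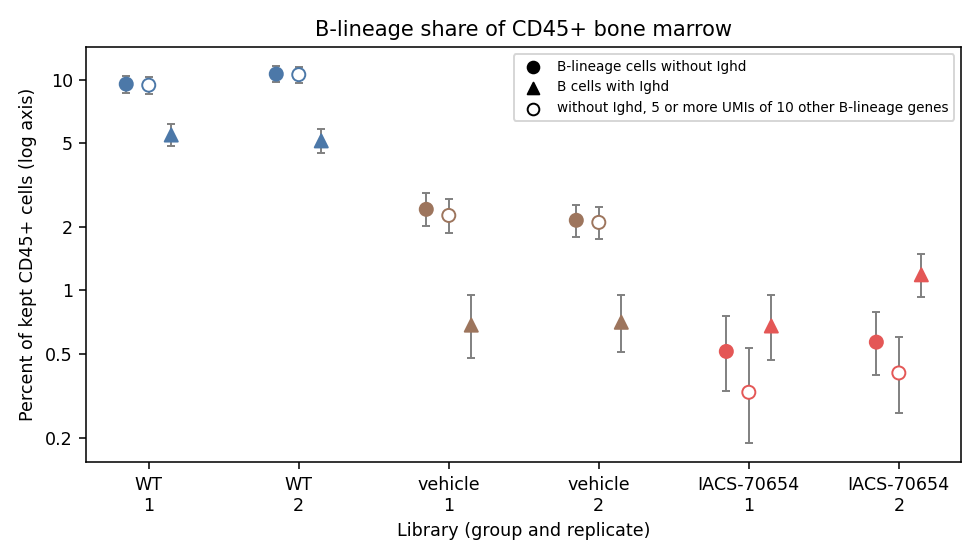
Percent of kept CD45+ BM cells (log axis) in each library of WT, vehicle and IACS-70654 mice for B-lineage cells without Ighd (filled circles), those of them with at least 5 UMIs of 10 other B-lineage genes (open circles) and B cells with Ighd (triangles), with 95% exact binomial intervals that cover counting error only. Cells without Ighd lie near 10.1% in WT, 2.29% with vehicle and 0.541% with IACS-70654, whereas B cells with Ighd do not fall between vehicle and IACS-70654.

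B cells with Ighd followed another course. They numbered 250 and 225 in WT, 35 and 43 in vehicle libraries and 33 and 73 with IACS-70654, which is 5.46% and 5.12%, 0.685% and 0.706%, and 0.678% and 1.19% of kept cells. IACS-70654 library 1 lay beside the vehicle libraries and library 2 above them. For this class the log2 difference was -2.92 (SE 0.2003, adjusted p = 6.45e-12 by the same edgeR test) with vehicle against WT and 0.46 (SE 0.296, adjusted p = 0.184) with IACS-70654 against vehicle. The latter was 0.79 (SE 0.243, adjusted p = 0.00665) with cells outside the S100a8/S100a9-high class as the denominator and 0.77 (SE 0.2702, adjusted p = 0.0231) without IACS-70654 library 1, and both of these passed the threshold, whereas it was -0.04 (adjusted p = 0.912) without IACS-70654 library 2.

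The balance of cells with and without Ighd was compared next. Of all B-lineage cells, those without Ighd made up 63.6% and 67.5% in WT, 77.99% and 75.3% in vehicle libraries and 43.1% and 32.4% with IACS-70654. Vehicle libraries were the highest and treated libraries the lowest, with no overlap, but an exact 2-sided permutation test with 2 libraries in each group cannot give a p below 0.333, the value found for each of the 3 comparisons. Detection of Ighd depends on depth, which differed between groups. After thinning to 2000 UMIs, cells without and with Ighd numbered 332 and 138, and 349 and 137, in the WT libraries. They numbered 75 and 18, and 89 and 22, with vehicle, and 8 and 20, and 22 and 43, with IACS-70654. The percentages were taken again with only those cells without Ighd that had RNA of the 10 other genes, and all B cells with Ighd. They were then 63.3 and 67.3 in WT, 76.8 and 74.9 in the vehicle libraries and 32.7 and 25.5 in the treated ones.

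The members were then divided by stage, after each cell was thinned at random to 2000 UMIs because depth differed between groups. Thinning left out 52, 55, 10, 15, 0 and 3 of the members, those under that depth, in the order WT, vehicle and IACS-70654. Cells with at least 2 UMIs of Vpreb1, Vpreb2 and Igll1 were counted as positive for surrogate light chain, and cells with at least 2 UMIs of 10 mitotic genes such as Mki67 and Top2a as cycling. Those with neither, but with at least 3 UMIs of H2-Aa, H2-Ab1, H2-Eb1 and Ms4a1, were counted as MHC class II positive, which marks later stages, and the few with at least 2 UMIs of Siglech were kept apart. These are ranges of RNA counts rather than cell types.

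In WT, 8.33% and 7.52% of the thinned members were positive for surrogate light chain and not cycling, and 28.4% and 26.9% were cycling with or without surrogate light chain. With vehicle the percentages were 7.02 and 10.3 for the first class and 28.1 and 31.0 for cycling cells. The WT and vehicle values were side by side, and none of 6 classes passed an adjusted p of 0.05 between them (edgeR quasi-likelihood test), with log2 differences from -0.47 to 1.07. At an unadjusted p under 0.05 the count was also 0.

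With IACS-70654, 28.0% and 18.8% of 25 and 32 thinned members were positive for surrogate light chain and not cycling. Both values were above all 4 WT and vehicle values. The log2 difference was 1.38 (SE 0.423, adjusted p = 0.0601) against vehicle, which missed the threshold, and 1.52 (SE 0.388, adjusted p = 0.0122) against WT, a call that was lost with a replicate block (log2 difference 1.52, adjusted p = 0.0833), without either WT library, without IACS-70654 library 1, after thinning to 1000 UMIs and with a minimum of 1 UMI. Cycling cells made up 24.0% (95% exact binomial interval 9.36% to 45.1%) and 12.5% (3.51% to 29.0%), and MHC class II positive cells 16% and 31.3%. In both the treated libraries lay far apart from each other. The test was run on cycling cells with and without surrogate light chain as separate classes, and neither of these nor MHC class II positive cells passed it.

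Members with RNA of the 10 other genes are a set defined after the values were seen. It is given here as percentages only, and fitted changes follow in the section on processing. These members gave 43.8% and 27.3% positive for surrogate light chain and not cycling with IACS-70654, against 8.40% and 7.58% in WT and 7.55% and 10.6% with vehicle. In this set, cycling cells made up 12.5% and 9.09% with IACS-70654, against 28.1% and 27.1% in WT and 27.4% and 31.0% with vehicle. The treated values rest on 16 and 22 cells, so that 1 cell is worth several percentage points.

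**Figure D2:**
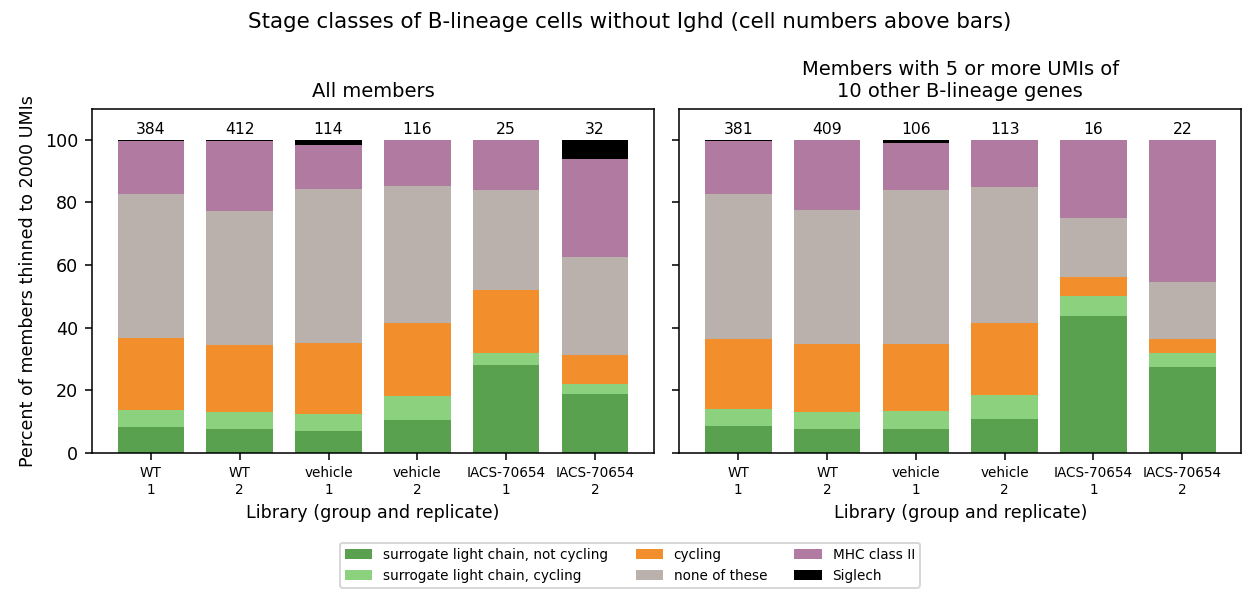
Percent of members in 6 exclusive stage classes after thinning to 2000 UMIs per cell, for each library, with the number of thinned cells above each bar, for all members (left) and for members with at least 5 UMIs of 10 other B-lineage genes (right). WT and vehicle libraries have near equal bars, and in the IACS-70654 libraries the class positive for surrogate light chain and not cycling reaches 28.0% and 18.8% of all members.

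RNA of the members was compared with UMIs summed over the members of each library, 1958992 and 2255918 in WT, 755475 and 717465 in vehicle libraries and 341003 and 375055 with IACS-70654, so the treated sums carry the largest counting error. Of 8333 genes tested, 36 (0.432%) were called between vehicle and WT (adjusted p below 0.01, log2 change beyond 0.5 either way), 34 higher (0.408%) and 2 lower (0.024%) with vehicle. Of the 10 named as higher, Ctsg, Prtn3, Mpo, Anxa3 and Alox5ap are known from granulocytes and their precursors. Prtn3, a protease of primary granules, had 229 and 260 CPM in WT and 1988 and 834 CPM with vehicle, a log2 change of 2.59 (SE 0.286, adjusted p = 0.000209). Ctsg, another granule protease, had 66.4 and 69.6 CPM in WT and 764 and 406 CPM with vehicle, with a log2 change of 3.16 (SE 0.317, adjusted p = 7.45e-05). Vehicle libraries lay above WT libraries for both genes, and vehicle library 1 lay well above library 2. Under the stricter Cd79 rule the log2 changes were -0.42 for Prtn3 and -0.01 for Ctsg, so that neither rise was seen there.

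Wfdc17, a secreted protein of myeloid cells, led the list of genes higher with vehicle, together with Ifitm1, an interferon-inducible membrane protein. Wfdc17 had 70.4 and 61.6 CPM in WT and 236 and 275 CPM with vehicle in all members, a log2 change of 2.00 (SE 0.164, adjusted p = 1.21e-05). It had 70.0 and 61.4 CPM in WT and 291 and 305 CPM with vehicle in members with at least 5 UMIs of Cd79a and Cd79b, a log2 change of 2.23 (SE 0.320, adjusted p = 0.00709). The median log2 change of the 12 neutrophil markers was 1.19 under that stricter rule and 0.90 in all members, so this restriction did not lower their median. Prtn3 and Mpo, which are among the 12, reversed under it. In the set that met no other rule Wfdc17 had 74.3 and 56.8 CPM in WT and 78.2 and 58.0 CPM with vehicle, so that the groups overlapped there. Of the 34 genes called higher, 9 were among the 10 called higher under the stricter Cd79 rule (11 genes called of 7421 tested, 0.148%). Among members that met no other rule, 4 of 6049 genes (0.0661%) were called, all lower, and 0 of the 34 higher genes were among the calls by edgeR, with 312 of 6049 genes at an unadjusted p under 0.05. The sum of the 12 neutrophil markers moved with these genes, from 29758 and 34805 CPM to 53099 and 60145 CPM, and its part in the result was not tested beyond these restrictions.

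H1fx, a linker histone gene, was lower with vehicle, with 45 and 59 UMIs in WT against 3 and 2 UMIs with vehicle, which is 22.97 and 26.1 CPM against 3.97 and 2.79 CPM. The log2 change was -2.77 (SE 0.465, adjusted p = 0.00599). IACS-70654 libraries were higher than both other groups for this gene, with 49.9 and 42.7 CPM, and its counts with vehicle are at the floor of 3 UMIs. In members that met no other rule H1fx kept its direction with vehicle against WT but lost its call.

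Genes of B-cell development were compared between vehicle and WT beside the 0.432% of all genes called. Of 93 tested genes on 6 lists, the genes of the rule left out (chains of the pre-BCR and BCR, BCR signaling, V(D)J recombination, transcription factors of B lymphopoiesis, IL-7 signaling with retention and survival, and MHC class II), 0 were called by edgeR and 0 by DESeq2, while 14 had an unadjusted p under 0.05, beside 916 of all 8333 genes. Of 97 tested genes on 3 lists of the cell cycle, 0 were called by either tool, with 4 at an unadjusted p under 0.05. The medians of the log2 changes were -0.34 for the receptor chains, -0.12 for transcription factors and -0.14 for G2/M genes, beside 0.00 over all genes. In the same order they were -0.15, 0.04 and -0.06 under the stricter Cd79 rule. Among members that met no other rule they were -0.03, 0.10 and -0.11. Ebf1, a transcription factor that commits cells to the B lineage, had 6662 and 6342 CPM in WT and 5050 and 4933 CPM with vehicle, a log2 change of -0.33 (SE 0.134, adjusted p = 0.355). Bach2, a transcriptional repressor of B-lineage cells, had 3044 and 2985 CPM in WT and 2609 and 2714 CPM with vehicle, a log2 change of -0.13 (SE 0.134, adjusted p = 0.788). Blk, a Src-family kinase downstream of the pre-BCR, had 139 and 153 CPM in WT and 80.7 and 89.2 CPM with vehicle, with no overlap, but its log2 change of -0.73 (SE 0.173, adjusted p = 0.0442) missed the threshold.

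In members that were neither cycling nor positive for surrogate light chain, at least 73 cells per WT or vehicle library, 6 of 6715 genes (0.0894%) were called between vehicle and WT, all higher with vehicle. They were Wfdc17, Lyz2, Ltf, Ifitm1, Ifitm2 and Ifitm3. Ltf is among the 12 neutrophil markers, whose summed RNA rose with vehicle in all members. Members that met another rule were kept in this fit, and the part of neutrophil RNA in these calls was not tested. Wfdc17 had 93.7 and 86.2 CPM in WT and 556 and 477 CPM with vehicle, a log2 change of 2.58 (SE 0.158, adjusted p = 8.18e-06, edgeR quasi-likelihood test). Lyz2, lysozyme of myeloid cells, had 1154 and 1214 CPM in WT and 2336 and 2490 CPM with vehicle. The count was 0 without vehicle library 2 and 55 without WT library 2. The treated libraries had 5 and 16 such cells, under a minimum of 20 cells a library, and were left out of this fit. That minimum was applied here only, and the treated libraries entered the other restricted sets with 9 and 17 cells and with 12 and 22 cells.

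The comparison of IACS-70654 with vehicle asked how RNA differed in the members that remained. The sums hold a mix of stages, and of cells with and without other B-lineage RNA. Members with at least 5 UMIs of the 10 other B-lineage genes gave 146781 of 341003 and 149735 of 375055 UMIs with IACS-70654. With vehicle they gave 576412 of 755475 and 648252 of 717465 UMIs. Surrogate light chain positive, non-cycling cells made up 28.0% and 18.8% of thinned treated members, against 7.02% and 10.3% with vehicle. The part of either mix in the changes below was not tested. Of 8333 genes, 346 (4.15%) were called, 97 higher (1.16%) and 249 lower (2.99%) with IACS-70654. Of the 249 lower genes, 46 were also called lower among the 60 of 7421 (0.809%) under the stricter Cd79 rule, and 69 among the 87 of 6049 (1.44%) in members that met no other rule. Of the 97 higher genes, 8 were among the 12 (0.162%) called higher under the stricter rule, and 7 among the 76 (1.26%) in members that met no other rule. The lower genes that the naming rule picked kept their calls in both restricted sets, whereas 4 of the 10 higher ones kept theirs under the stricter rule and none did in members that met no other rule.

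Of the 10 genes named as lower, Bach2, Myl4, Ly6d, Ighm and Vpreb3 are known from B-lineage cells. Bach2 had 3044 and 2985 CPM in WT, 2609 and 2714 CPM with vehicle and 481 and 427 CPM with IACS-70654. It was therefore near WT with vehicle and lower in both treated libraries than in any other. The log2 change against vehicle was -2.50 (SE 0.152, adjusted p = 7.26e-08). Under the stricter Cd79 rule Bach2 had 3376 and 3001 CPM with vehicle and 1198 and 1106 CPM with IACS-70654, a log2 change of -1.39 (SE 0.132, adjusted p = 6.22e-05), and in members that met no other rule 4418 and 3692 CPM against 1525 and 870 CPM, a log2 change of -1.81 (SE 0.173, adjusted p = 4.17e-08). The change was smaller in both restricted sets than in all members and kept its direction and call.

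Myl4, a myosin light chain gene whose RNA is found in pre-B cells, had 468 and 513 CPM in WT, 340 and 424 CPM with vehicle and 14.7 and 21.3 CPM with IACS-70654. The treated libraries rest on 5 and 8 UMIs, against 257 and 304 with vehicle, and the log2 change was -4.33 (SE 0.282, adjusted p = 1.27e-07). Ly6d, a surface protein of committed lymphoid progenitors and B cells, had 285 and 235 CPM in WT, 289 and 254 CPM with vehicle and 11.7 and 16 CPM with IACS-70654, a log2 change of -4.22 (SE 0.315, adjusted p = 6.08e-07). Neither gene overlapped between treated and other libraries, and in members that met no other rule the log2 changes were -3.30 for Myl4 (3 UMIs in each treated library) and -2.83 for Ly6d (3 and 5 UMIs).

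Among the chains of the pre-BCR and BCR other than Cd79a and Cd79b, which chose the members, 3 of 9 tested genes were called lower and 0 higher, with a median log2 change of -1.08 beside 0.02 over all genes. Under the stricter Cd79 rule 2 were called lower and 0 higher, with a median of -0.14. Without members that met another rule, 3 were called lower and 1 higher and the median was -0.22, beside -0.10 over all genes there. Of all genes, 2.99%, 0.809% and 1.44% were called lower in these sets, in that order, and 1.26% higher in the last. Ighm, the heavy chain of IgM, had 2939 and 2790 CPM in WT, 2021 and 2358 CPM with vehicle and 411 and 555 CPM with IACS-70654, a log2 change of -2.12 (SE 0.168, adjusted p = 1.00e-06). Among members that met no other rule it had 3601 and 3323 CPM with vehicle and 1203 and 1880 CPM with IACS-70654, a log2 change of -1.12 (SE 0.159, adjusted p = 1.45e-05). Vpreb3, a chaperone-like partner of the immunoglobulin chains in pre-B and immature B cells, had 2199 and 2076 CPM in WT, 1440 and 1833 CPM with vehicle and 334 and 403 CPM with IACS-70654, a log2 change of -2.09 (SE 0.169, adjusted p = 1.22e-06). Without members that met another rule it had 2619 and 2627 CPM against 1547 and 1197 CPM, a log2 change of -0.96 (SE 0.153, adjusted p = 9.05e-05). For both genes the treated libraries stayed below all others.

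Of the 3 surrogate light chain genes, Vpreb1 alone was called higher against vehicle, in members that met no other rule, and none was called in all members or under the stricter Cd79 rule. Vpreb1 had 419 and 394 CPM in WT, 273 and 396 CPM with vehicle and 311 and 285 CPM with IACS-70654 in all members, a log2 change of -0.11 (SE 0.182, adjusted p = 0.774). In the set that met no other rule it had 445 and 397 CPM in WT, 382 and 624 CPM with vehicle and 1504 and 979 CPM with IACS-70654 (70 and 63 UMIs), a log2 change of 1.25 (SE 0.221, adjusted p = 0.00035). Under the stricter Cd79 rule the log2 change was 0.69 (adjusted p = 0.0918) and missed the threshold. Igll1, the other surrogate light chain gene, had 307 and 348 CPM with vehicle and 752 and 451 CPM with IACS-70654 in members that met no other rule, a log2 change of 0.82 (SE 0.253, adjusted p = 0.0556). Vpreb2 had 50.1 and 82.8 CPM against 193 and 171 CPM there (9 and 11 treated UMIs), a log2 change of 1.42 (SE 0.441, adjusted p = 0.0588). Vpreb1 and Vpreb2 are near-identical, so that reads could be split between them.

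Dntt, the terminal transferase of pro-B cells, had 148 and 78.5 CPM in WT, 101 and 82.2 CPM with vehicle and 176 and 229 CPM with IACS-70654 in all members, with a log2 change of 1.20 (SE 0.299, adjusted p = 0.018) that missed the threshold. Under the stricter Cd79 rule it had 123 and 92.1 CPM with vehicle and 234 and 354 CPM with IACS-70654, a log2 change of 1.55 (SE 0.266, adjusted p = 0.00655). Among members that met no other rule it had 137 and 90.1 CPM in WT, 144 and 146 CPM with vehicle and 709 and 684 CPM with IACS-70654 (33 and 44 UMIs), a log2 change of 2.26 (SE 0.281, adjusted p = 1.99e-06). Both treated libraries were above all others in all 3 sets.

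Of 13 tested genes of V(D)J recombination and end joining, 4 were called lower and 0 higher in all members (Rag1, Lig4, Xrcc6 and Hmgb1). Under the stricter Cd79 rule 2 of 12 were called lower and 1 higher. Without members that met another rule 2 of 11 were called lower (Hmgb1 and Hmgb2, chromatin proteins that are also abundant in dividing cells) and Dntt was called higher. Of all genes, 2.99%, 0.809% and 1.44% were called lower in these sets, in that order, and 1.16%, 0.162% and 1.26% higher. Rag1, a subunit of the recombinase, had 87.4 and 118 CPM with vehicle and 32.3 and 37.3 CPM with IACS-70654 in all members, a log2 change of -1.50 (SE 0.319, adjusted p = 0.00656). It had 166 and 193 CPM against 150 and 124 CPM in members that met no other rule, a log2 change of -0.41 (SE 0.414, adjusted p = 0.702), so the call was lost there.

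For transcription factors of B lymphopoiesis too the calls depended on which members were counted. Of 22 tested, 11 were called lower and 0 higher in all members, 1 lower and 0 higher under the stricter Cd79 rule, and 2 lower and 2 higher in members that met no other rule. Of all genes, 2.99%, 0.809% and 1.44% were called lower in these sets, in that order, and 1.16%, 0.162% and 1.26% higher. Ebf1 had 5050 and 4933 CPM with vehicle and 2258 and 2546 CPM with IACS-70654 in all members, a log2 change of -1.002 (SE 0.138, adjusted p = 0.000194). In the set that met no other rule Ebf1 had 8216 and 6797 CPM with vehicle and 8874 and 6961 CPM with IACS-70654, with a log2 change of 0.06 (SE 0.120, adjusted p = 0.850), and the groups overlapped. Pax5, the factor that maintains B-cell identity, had log2 changes of -0.94 (adjusted p = 0.00597) in all members and -0.10 (SE 0.190, adjusted p = 0.850) in members that met no other rule.

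Bach2 was thus the factor called lower in all 3 sets. Spib, an Ets factor of later B-cell stages, had 151 and 176 CPM with vehicle and 11.7 and 26.7 CPM with IACS-70654 in all members, a log2 change of -3.00 (SE 0.311, adjusted p = 1.29e-05), and a log2 change of -2.06 (SE 0.462, adjusted p = 0.00462) on 3 and 4 treated UMIs in members that met no other rule. Erg, an Ets factor of progenitors, and Mef2c were the 2 called higher there. Erg had 119 and 116 CPM with vehicle and 301 and 326 CPM with IACS-70654, a log2 change of 1.43 (SE 0.336, adjusted p = 0.00702). Mef2c had 526 and 582 CPM with vehicle and 1289 and 808 CPM with IACS-70654, a log2 change of 0.87 (SE 0.205, adjusted p = 0.00705). Neither of the latter 2 genes was called in all members.

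Of 18 tested BCR coreceptors and signaling genes, 9 were called lower and 0 higher, with a median log2 change of -0.93. Under the stricter Cd79 rule 2 of 17 were called lower and 0 higher, with a median of -0.48. Among members that met no other rule 4 of 17 were called lower (Cd72, Syk, Lyn and Fcrla) and 1 higher (Bank1). Of all genes, 2.99%, 0.809% and 1.44% were called lower in these sets, in that order, and 1.26% higher in the last. Cd72, an inhibitory coreceptor, had 325 and 294 CPM in WT, 240 and 255 CPM with vehicle and 26.4 and 37.3 CPM with IACS-70654, a log2 change of -2.89 (SE 0.248, adjusted p = 1.48e-06). Syk, the kinase that binds phosphorylated CD79A and CD79B, had 732 and 700 CPM in WT, 543 and 596 CPM with vehicle and 202 and 203 CPM with IACS-70654, a log2 change of -1.44 (SE 0.163, adjusted p = 3.39e-05). Without members that met another rule Syk had 795 and 748 CPM with vehicle and 322 and 326 CPM with IACS-70654, a log2 change of -1.24 (SE 0.243, adjusted p = 0.00116). For both genes the treated libraries lay below all others in both sets.

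The remaining genes that the naming rule gave as lower were Cacna1e, Dnajc7, Pafah1b3, Ppm1e and Akap12. Their log2 changes ran from -3.12 for Ppm1e to -2.32 for Dnajc7 in all members and from -3.13 for Ppm1e to -1.67 for Pafah1b3 in members that met no other rule. Dnajc7, a cochaperone, had 813 and 701 CPM in WT, 690 and 712 CPM with vehicle and 108 and 160 CPM with IACS-70654, with an adjusted p of 1.45e-06. Ppm1e, a protein phosphatase, had 414 and 407 CPM in WT, 342 and 287 CPM with vehicle and 23.5 and 45.3 CPM with IACS-70654. For all 5 genes the treated libraries lay below every WT and vehicle library, and none was called between vehicle and WT.

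Several mitotic genes were lower with IACS-70654, and the medians were further from 0 in the restricted sets. Of 52 tested G2/M genes, 9 were called lower and 0 higher in all members, beside 2.99% of all genes called lower, with a median log2 change of -0.89 beside 0.02 over all genes. Under the stricter Cd79 rule 11 of 51 were called lower and 0 higher, and in members that met no other rule 12 of 44 and 0, beside 0.809% and 1.44% of all genes called lower in these sets. With genes at 0 UMIs in a group set to the bound that 3 UMIs give, the medians were -1.86 and -1.65. Of 43 S-phase genes 1 was called lower and 0 higher in all members, near the share of all genes, with a median of -0.15. Their median was -0.65 under the stricter Cd79 rule (1 of 39 called, lower) and -0.90 in members that met no other rule, with genes at 0 UMIs at the bound (1 of 38 called, lower).

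Mki67, which marks dividing cells, had 356 and 418 CPM in WT, 291 and 379 CPM with vehicle and 176 and 125 CPM with IACS-70654, a log2 change of -1.10 (SE 0.206, adjusted p = 0.00253). Under the stricter Cd79 rule it had 379 and 434 CPM in WT, 365 and 392 CPM with vehicle and 75.4 and 22.6 CPM with IACS-70654 (9 and 3 UMIs), a log2 change of -2.91 (SE 0.363, adjusted p = 0.000686). Top2a, the topoisomerase of mitotic chromosomes, had 495 and 596 CPM in WT, 529 and 487 CPM with vehicle and 16.8 and 30.1 CPM with IACS-70654 (2 and 4 UMIs) under the same rule, a log2 change of -4.34 (SE 0.360, adjusted p = 1.89e-05). All treated values were below all others. In all members, 8 of 25 and 6 of 35 treated cells had at least 100 UMIs of Elane, Mpo and Prtn3, and the part of these cells in the smaller change there was not tested.

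**Figure D3:**
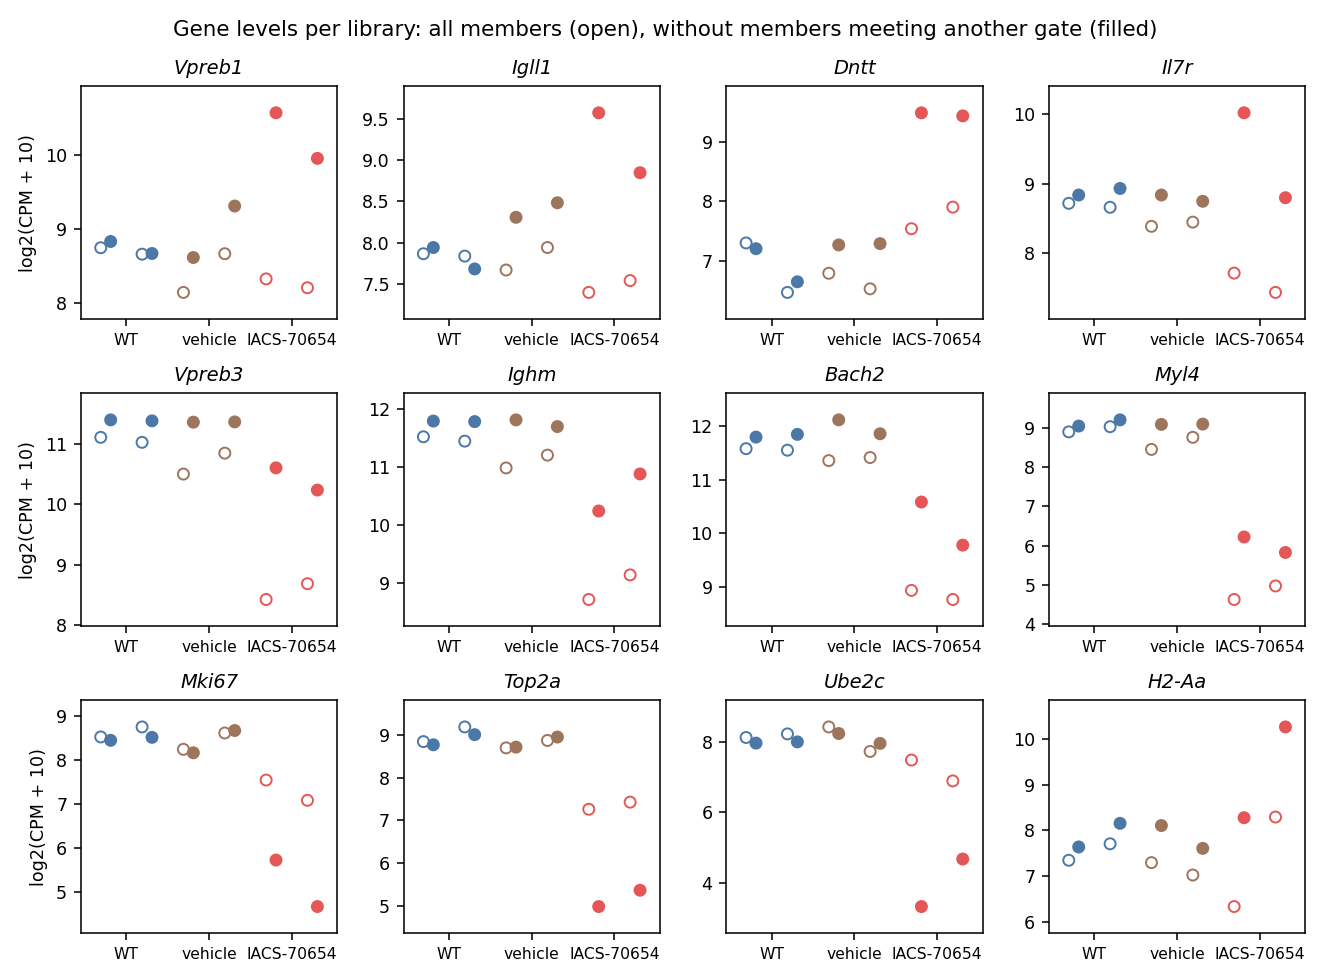
Levels of 12 genes as log2(CPM + 10) in each library of WT, vehicle and IACS-70654 mice, for all members (open) and for members that met no rule of another cell type (filled). Bach2, Myl4, Vpreb3 and Ighm are low in the IACS-70654 libraries in both sets, Mki67, Top2a and Ube2c are lower still in the filled points, and Vpreb1 and Dntt lie above the other groups in the filled points.

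MHC class II genes had no call among 8 tested in all members by edgeR, with a median log2 change of 0.54. Under the stricter Cd79 rule 0 of 7 were called, with a median of 1.56. In the set that met no other rule 3 of 8 were called higher and 0 lower (H2-Aa, H2-Eb1 and Cd74), beside 1.26% of all genes called higher. H2-Aa had 266 and 185 CPM with vehicle and 301 and 1228 CPM with IACS-70654 there (14 and 79 UMIs), a log2 change of 1.90 (SE 0.342, adjusted p = 0.000449). H2-Eb1 had 110 and 74.5 CPM with vehicle and 129 and 963 CPM with IACS-70654, a log2 change of 2.75 (SE 0.451, adjusted p = 0.000133). IACS-70654 library 2 was high for both genes, whereas library 1 was only slightly above the vehicle libraries.

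Among 28 genes of IL-7 signaling, retention and survival, 23 could be tested, and 5 were called lower and 1 higher in all members, with a median log2 change of -0.10. Of all genes, 2.99% were called lower and 1.16% higher. Under the stricter Cd79 rule 0 of 19 were called, with a median of 0.07. Among members that met no other rule 1 of 19 was called lower and 0 higher, with a median of 0.11, beside 1.44% of all genes called lower. Il7r, a chain of the IL-7 receptor, had 324 and 339 CPM with vehicle and 199 and 163 CPM with IACS-70654 in all members, a log2 change of -0.82 (SE 0.170, adjusted p = 0.00533). Among members that met no other rule it had 447 and 420 CPM against 1031 and 435 CPM, a log2 change of 0.68 (SE 0.247, adjusted p = 0.131), so its direction depended on the members counted. Il2ra, the IL-2 receptor alpha chain of large pre-B and small pre-B cells, had 34 and 42 UMIs with vehicle and 2 and 2 UMIs with IACS-70654 (45.0 and 58.5 CPM against 5.87 and 5.33 CPM), a log2 change of -3.13 (SE 0.530, adjusted p = 0.00111). Its treated counts are under the floor of 3 UMIs, so the size of this change is uncertain.

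The inhibitor's targets were measured in the same cells. Crebbp, which encodes CBP, had 271 and 296 CPM in WT, 216 and 254 CPM with vehicle and 202 and 179 CPM with IACS-70654, a log2 change of -0.25 (SE 0.174, adjusted p = 0.418) against vehicle. Ep300, which encodes P300, had 110 and 112 CPM in WT, 88.7 and 124 CPM with vehicle and 79.2 and 72.0 CPM with IACS-70654, a log2 change of -0.44 (SE 0.240, adjusted p = 0.282). Of 20 tested coactivator, acetyltransferase, deacetylase and BET genes, 1 was called, near the 4.15% of all genes, and it was the deacetylase gene Hdac8, with 353 and 379 CPM with vehicle and 99.7 and 80.0 CPM with IACS-70654, a log2 change of -1.98 (SE 0.190, adjusted p = 5.45e-06). Hdac8 kept its call under the stricter Cd79 rule (log2 change -1.55, adjusted p = 0.00258) but not in members that met no other rule (-1.12, adjusted p = 0.0256).

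Of the 10 genes named as higher with IACS-70654, Stfa3, Stfa2l1, Chil3, Elane and Cebpe are known from granulocytes and their precursors. Stfa3 and Stfa2l1, stefin A protease inhibitors of neutrophils, had 572 and 483 CPM and 273 and 360 CPM with IACS-70654, against 27.8 and 39.0 CPM and 55.6 and 66.9 CPM with vehicle. Their log2 changes were 4.03 (SE 0.202, adjusted p = 6.89e-09) and 2.43 (SE 0.198, adjusted p = 1.22e-06). Both rose under the stricter Cd79 rule too, where the median log2 change of the 12 neutrophil markers was 0.94, beside 0.34 in all members, but in members that met no other rule the 2 genes had 0 UMIs in IACS-70654 library 1 and 5 UMIs in library 2 and were not called. Stefin A genes are near-identical copies, so the split of reads among them is uncertain.

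Chil3, a lectin of myeloid cells, had 84.7 and 103 CPM with vehicle and 381 and 456 CPM with IACS-70654, a log2 change of 2.21 (SE 0.171, adjusted p = 8.11e-07), and it had 43.8 and 22.1 CPM against 21.5 and 62.2 CPM in members that met no other rule. Elane, neutrophil elastase, had 790 and 393 CPM with vehicle and 3683 and 4383 CPM with IACS-70654, a log2 change of 2.81 (SE 0.281, adjusted p = 7.70e-06), and 87.6 and 88.3 CPM against 85.9 and 77.7 CPM in members that met no other rule. Cebpe, a transcription factor of granulocyte maturation, had 51.6 and 40.4 CPM with vehicle and 170 and 171 CPM with IACS-70654 in all members, and 0 UMIs in both treated libraries in members that met no other rule. Gria3, Cstdc5, Alas1, H1fx and Atp8b4 were the other genes named as higher, with log2 changes from 1.33 for Atp8b4 to 3.77 for H1fx in all members, and none was called in members that met no other rule. The groups were apart in all members for Chil3, Elane and Cebpe. In the restricted set they overlapped for Chil3, Elane was slightly lower in both treated libraries on 4 and 5 UMIs, and Cebpe was at 0, and the summed neutrophil markers, 80032 and 60940 CPM in the treated libraries, were the highest of the 3 groups.

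Other responses were read from 8 further lists. Of 17 tested genes of glycolysis 4 were called higher in all members and 0 in either restricted set, of 17 immediate early genes 3 were called lower, of 14 interferon response genes 1 was called lower, and of 11 MHC class I genes and 20 genes of Myc and ribosome biogenesis 0 were called by edgeR. Over these 5 lists and those of coactivators, glucocorticoid response and p53 (114 genes tested), 10 genes (8.77%) were called by edgeR, beside 4.15% of all genes, and 9 by DESeq2, and 41 had an unadjusted p under 0.05. Myc had 38.4 and 6.97 CPM with vehicle and 96.8 and 69.3 CPM with IACS-70654, a log2 change of 1.89 (SE 0.466, adjusted p = 0.0171) that missed the threshold.

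**Figure D4:**
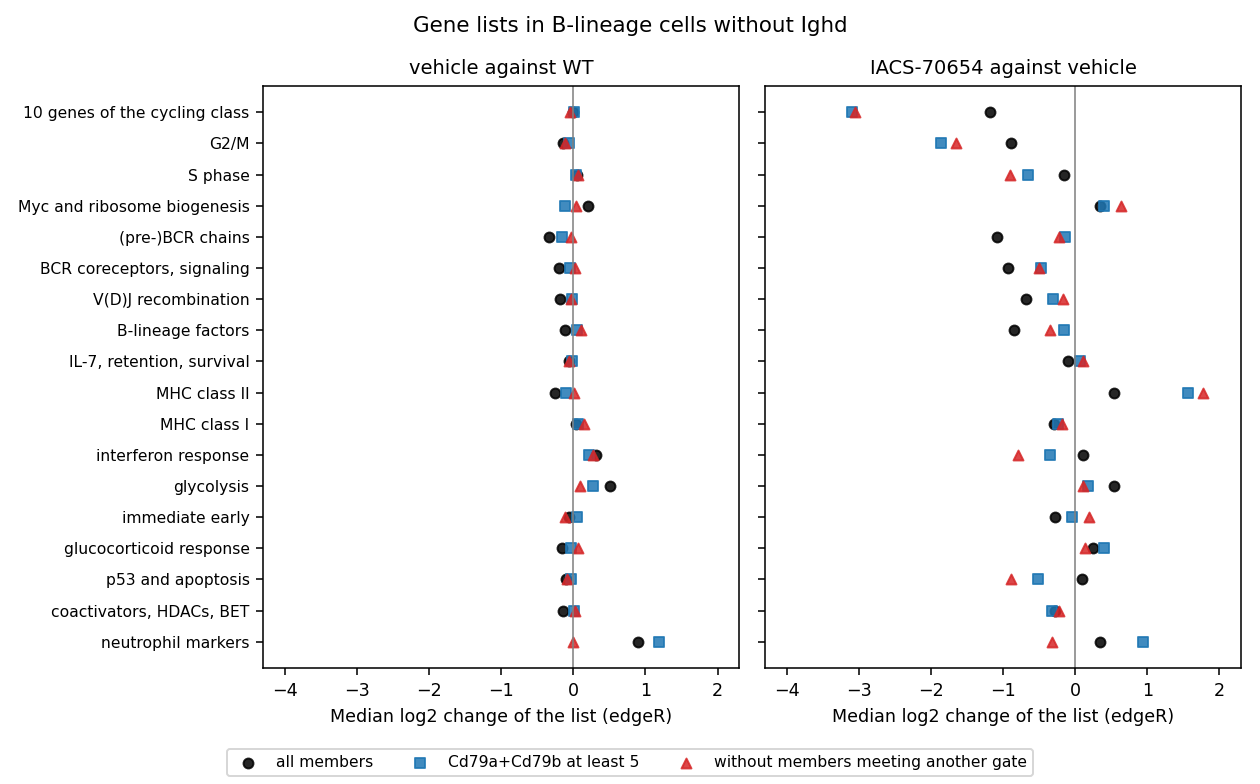
Median fitted log2 change of 18 gene lists with vehicle against WT (left) and IACS-70654 against vehicle (right), for all members (circles), members with at least 5 UMIs of Cd79a and Cd79b (squares) and members that met no other rule (triangles), the latter 2 with genes at 0 UMIs in a group set to the bound of 3 UMIs. Left, most points lie near 0 and neutrophil markers lie at 0.90 in all members, and right, G2/M genes lie at -0.89 in all members, -1.86 with the stricter Cd79 rule and -1.65 without members meeting another rule.

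IACS-70654 against WT gave 1017 called genes of 8333 (12.2%). B cells with Ighd were also fitted alone by edgeR, with 5941 genes tested. There 216 were called for IACS-70654 against vehicle (99 higher and 117 lower), 20 for vehicle against WT and 55 for IACS-70654 against WT. Whether the changes were particular to cells without Ighd was tested as an interaction with B cells with Ighd of the same libraries, in 8404 genes. For IACS-70654 against vehicle 0 genes (0.0%) were called by edgeR, with 956 at an unadjusted p under 0.05, and DESeq2 was not run on it. For vehicle against WT 7 genes (0.0833%) were called and for IACS-70654 against WT 26 genes (0.309%). Bach2 had 2770 and 3155 CPM with vehicle and 1335 and 1247 CPM with IACS-70654 in B cells with Ighd. Its change against vehicle was lower by 1.30 on the log2 scale (SE 0.254) in cells without Ighd, with an adjusted p of 0.0213 that missed the threshold. The test was repeated with both populations restricted, alternatives added after the data were seen. With at least 5 UMIs of Cd79a and Cd79b in both, 6 of 7810 genes (0.0768%) were called and 1 of the 26, Stfa3, was among them, although the difference stayed as large for Chil3, at 2.14 (SE 0.451, adjusted p = 0.0768) against 1.85 (SE 0.2497) in all members, and near for Anxa3, at 2.03 (SE 0.449) against 2.26 (SE 0.344). Without cells that met another rule, where 24 of the 26 could be tested, 0 of 6006 genes (0.0%) were called by edgeR, with 384 at an unadjusted p under 0.05, and DESeq2 was not run.

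The lineage-negative c-Kit+ libraries, sorted with a lineage cocktail that removes B220+ cells, held a few cells that met the same rule. With at least 5 UMIs of the 10 other genes they numbered 11 of 3875 and 8 of 3039 in WT, 43 of 6571 and 28 of 2836 with vehicle, and 22 of 7517 and 20 of 4317 with IACS-70654. As shares these were 0.284% (95% exact binomial interval 0.142% to 0.507%) and 0.263% (0.114% to 0.518%), 0.654% (0.474% to 0.880%) and 0.987% (0.657% to 1.42%), and 0.293% (0.184% to 0.443%) and 0.463% (0.283% to 0.715%). Both vehicle libraries had the highest shares, although the interval of vehicle library 1 overlapped those of WT and the intervals of both vehicle libraries overlapped that of IACS-70654 library 2. Most of these cells had at least 2 UMIs of surrogate light chain genes, 8 and 7 in WT, 39 and 25 in vehicle libraries and 22 and 20 with IACS-70654. These shares were not tested, and the intervals cover counting error only.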

How the data were processed

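Single-cell RNA-seq libraries of sorted CD45+Ter119– BM cells were analysed from WT, vehicle and IACS-70654 mice (2 libraries each, cells of 3 mice pooled), and lineage-negative c-Kit+ libraries were read for values only. The authors deposited raw UMI counts per gene and cell, made with CellRanger 7.2.0 for BM libraries (7.1.0 for tumors), and the submitters' processing notes name the build mm10. Per the study, samples were multiplexed by CellPlex. Kept cells had 201 to 5999 genes, and mitochondrial UMIs were no more than 10% of their total. Libraries held 27816638 to 54510172 UMIs, and the precision of the IACS-70654 values is set by their 25 and 35 cells.

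For each library, the UMIs of all cells in a set were added up and tested with edgeR 4.0.16 (R 4.3.3) by its quasi-likelihood test with TMM scaling, over all genes past its filter on low counts, with Benjamini-Hochberg adjustment. A gene was called with adjusted p below 0.01 and log2 change beyond 0.5 either way, and shares of cells at an adjusted p under 0.05. The fit used all 6 libraries, with no covariate. Named were the 10 called genes a direction with the lowest adjusted p whose groups did not overlap in CPM, leaving out unnamed gene models, mitochondrial and sex-linked genes, immunoglobulin variable segments, genes of the rule and genes over 10 times higher in S100a8/S100a9-high cells, and also list members as examples, Crebbp and Ep300. Cd79a, Cd79b, Ighd and Jchain, which chose the members, were left out of all lists. The members and gene lists were chosen with earlier results of these data known. Tables were built with Python 3.11.15, numpy 2.4.6, scipy 1.17.1 and pandas 2.3.3. Scrublet in scanpy 1.11.5 marked 1.92% of cells in WT library 1 and at most 0.103% elsewhere, so it did not work and no cell was removed in the main analysis. On simulated counts of 8333 genes for vehicle against WT, 50.7% of 200 genes changed by 1 on the log2 scale were recovered. The simulation gave all genes the same spread. The other comparisons and the restricted sets were not simulated. Alternatives were DESeq2 1.42.0, other scaling, no filter, a replicate block, each library left out, other cell rules and other thinning. Binomial intervals cover counting error only.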

Additional observations from a re-analysis of the deposited data

Results flagged for a closer look

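Of the 26 genes whose change with IACS-70654 against WT differed between B-lineage cells without Ighd and B cells with Ighd of the same libraries, by an interaction test in edgeR with Benjamini-Hochberg adjustment, the 13 that the lists or the naming rule cover are given. The log2 difference of the 2 changes was -1.73 for Bach2 (SE 0.252, adjusted p = 0.000833), which had 2359 and 2412 CPM in WT and 1335 and 1247 CPM with IACS-70654 in B cells with Ighd, and -1.79 for Ighm (adjusted p = 0.000833). It was -2.07 for Ikzf3, a transcription factor of B-cell maturation, and -1.49 for Syk. These 4 genes fell further in all members than in cells with Ighd. The 2 populations also differed in cells with little B-lineage RNA, whose part in these differences was not tested. Of the treated members 9 of 25 and 10 of 35 lacked RNA of other B-lineage genes, against 1 of 33 and 1 of 73 treated B cells with Ighd, and the sums of these 10 genes, none of them used by the rule, were 3733.1 and 4426 CPM against 6680.4 and 5286.8 CPM. With both populations restricted to cells that met no other rule, the differences were -0.96 for Bach2 (adjusted p = 0.164), -0.78 for Ighm (adjusted p = 0.485), -0.94 for Ikzf3 (adjusted p = 0.723) and -1.22 for Syk (adjusted p = 0.423), and none was called there.

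The other 9 genes differed in the other direction, with log2 differences of 1.85 for Chil3, 2.26 for Anxa3, 2.76 for Alas1, 2.45 for Prtn3, 2.35 for Elane, 2.87 for Mpo, 3.57 for Ctsg, 2.83 for Stfa3 and 2.73 for Gria3. Summed neutrophil markers were 80032 and 60940 CPM in the treated members and 27346 and 59463 CPM in treated B cells with Ighd. The 2 populations were thus nearly equal in library 2. In WT the sums were 29758 and 34805 CPM in members and 41237 and 50645 CPM in B cells with Ighd. In the same restricted cells none of the 8 of these 9 genes that could be tested was called, with adjusted p from 0.723 to 1.0. With at least 5 UMIs of Cd79a and Cd79b in both populations Stfa3 kept its call, at 3.38 (adjusted p = 0.00491), whereas Chil3 at 2.14 (adjusted p = 0.0768) and Anxa3 at 2.03 (adjusted p = 0.0828) stayed near their size in all members and missed the threshold.

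With vehicle against WT, the log2 difference was 2.81 for Prtn3, 3.99 for Ctsg and -2.01 for Kif11, a mitotic kinesin gene that had 100 and 66.5 CPM in WT and 211 and 249 CPM with vehicle in B cells with Ighd. None of the 3 was called in the restricted cells, where the differences were 0.16, 1.03 and -1.56.

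In the c-Kit+ libraries, which no comparison above used, cells that met the rule and had RNA of other B-lineage genes made up 0.654% and 0.987% with vehicle, above the WT shares of 0.284% and 0.263%. With 2 libraries in each group, no check for a library far from the others was made.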

How the results depend on the processing

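The fall in the share of B-lineage cells without Ighd kept its direction and its call in all 3 comparisons under every alternative run. The log2 change ran from -2.38 to -1.51 for vehicle against WT, from -2.84 to -1.74 for IACS-70654 against vehicle and from -5.16 to -3.25 for IACS-70654 against WT, and a replicate block gave -2.15, -2.06 and -4.21.

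Counts of called genes moved far more. For vehicle against WT (36 genes), the count was 145 with no filter on low counts, 81 with only the compared groups, 17 without cells marked by Scrublet, 11 with at least 5 UMIs of Cd79a and Cd79b, 4 in members that met no other rule and 121 at an adjusted p under 0.05 and any size. For IACS-70654 against vehicle (346 genes) it was 618 with no filter, 72 with the stricter Cd79 rule, 163 in members that met no other rule and 817 at an adjusted p under 0.05. For IACS-70654 against WT (1017 genes) it was 171, 182 and 1887 under the last 3 of these. In a set chosen after seeing the data, members with at least 5 UMIs of other B-lineage genes and under 500 of S100a8 and S100a9, the counts were 1, 225 and 215. DESeq2 gave 27, 267 and 687.

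Leaving out 1 library each gave 7 (without WT library 1) to 89 genes (without IACS-70654 library 1) for vehicle against WT, 200 (without vehicle library 2) to 339 for IACS-70654 against vehicle and 622 (without WT library 2) to 1065 for IACS-70654 against WT. It gave 0 to 55 for the 6 genes in non-cycling members. For the interaction it gave 0 to 52, 0 to 47 and 26 to 73 genes in the same order of comparisons, and restricting both populations, chosen after seeing the data, gave 0, 0 and 6 genes with the stricter Cd79 rule and 0, 1 and 0 without cells that met another rule. A lone library is then assumed to vary like the other groups.

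Replicate numbers showed little sign of pairing the samples. The deviations of same-numbered libraries correlated at 0.079, 0.096 and 0.021 over 2000 genes. With 2 libraries in each group, this check cannot exclude a shared run or batch. A replicate block gave 10 genes for vehicle against WT, 233 for IACS-70654 against vehicle, 776 for IACS-70654 against WT and 70 in non-cycling members.

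Among stage shares, the log2 change of 1.52 in surrogate light chain positive, non-cycling cells with IACS-70654 against WT lost its call with a replicate block (1.52), at 1000 UMIs (1.39), with a minimum of 1 UMI (1.26) and without single libraries (1.24 to 1.82 over all 6). With no thinning, cycling cells reversed to 0.52 against vehicle and 0.98 against WT, surrogate light chain positive cycling cells to 0.028 and 0.053, and cells with none of these marks passed the test at -2.54 and -2.71. In members with RNA of other B-lineage genes, a set chosen after seeing the data, the changes against vehicle were -2.07 for cycling, 1.29 for MHC class II positive, -1.32 for unmarked and 1.90 for surrogate light chain positive non-cycling cells, and those against WT were -2.06 for cycling and -1.27 for unmarked cells. For vehicle against WT, unmarked cells reversed to -0.16 with no thinning and -0.21 with a minimum of 1 UMI, and surrogate light chain positive cycling cells to -0.16 with that minimum. Without single libraries, changes there ran from -0.0084 to 0.15 for unmarked, -0.037 to 0.52 for surrogate light chain positive cycling and -0.17 to 0.38 for non-cycling cells, and MHC class II positive cells with IACS-70654 against WT from -0.31 to 0.65.

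With the stricter Cd79 rule Ctsg (-0.015), Mpo (-0.68) and Prtn3 (-0.42) reversed for vehicle against WT, and in the set with few S100a8 and S100a9 UMIs they were at -0.020, -0.89 and -0.50. For IACS-70654 against vehicle, Cstdc5 reversed to -0.27 and Elane to -0.11 in members that met no other rule, and Cstdc5 to -0.45 and Gria3 to -0.023 in the set with few S100a8 and S100a9 UMIs. Gria3 had 0 UMIs in both treated libraries in members that met no other rule, where the fitted value of -7.38 is no estimate of size. Of the other results on single genes, 386 kept direction and call and 65 lost the call. The causes were not tested. Depth limits the IACS-70654 group most, where 1 UMI is worth 21.5 and 15.5 CPM in members that met no other rule.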
